A study of Rattus norvegicus with 170 samples.

Results

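*Akr1b8*, an aldo-keto reductase that reduces aldehydes, and 8 genes of the defence against oxidative stress (*Nfe2l2*, *Nqo1*, *Hmox1*, *Gclc*, *Gclm*, *Txnrd1*, *Srxn1* and *Slc7a11*) were followed in single cells of rat islets. They are 9 of the 24113 genes in the deposited table, all 9 were found by symbol, and each is listed as a single transcript. *Akr1b8* was selected on its high ratio of GNF4877 to DMSO over the insulin-expressing cells, so that contrast is given as a description and supports nothing. Islets of wild-type, 8 week old male Sprague Dawley rats were kept whole for 48 h at 5.5 mM glucose. The medium held either the vehicle (0.1% DMSO) or 3 µM GNF4877, an aminopyrazine that inhibits the kinases DYRK1A and GSK3B. Dispersed cells were captured on Fluidigm C1 chips and sequenced one by one, which gave 86 DMSO cells and 84 GNF4877 cells, 170 in all, with values in RPM, read counts scaled by the mapped reads of each cell. The labels name no animal, culture or second chip. Each treatment was therefore 1 sample, treatment and chip cannot be told apart, and no difference between treatments has a replicate check or a test.

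Cells with *Ins1* of 1000 RPM or more are called *Ins1*-high here, and there were 78 of them under DMSO and 59 under GNF4877. Cells with *Gcg* of 1000 RPM or more and *Ins1* below 1000 RPM are called alpha cells (5 and 18 cells), and 3 and 7 cells fell in neither group. The lowest *Ins1* value inside the first group was 1784 RPM under DMSO and 1248 RPM under GNF4877, and the highest value outside it was 495 and 813 RPM. These neighbours of the threshold held little *Akr1b8*, with no read in either cell inside it and 2.96 and 1.19 RPM in the cells outside it. Depth, recovered from the RPM value of 1 read, ran from 241604 to 2499138 mapped reads per cell. The median over *Ins1*-high cells was 1235723 mapped reads under DMSO and 1424573 under GNF4877. Fewer genes were read in the deeper group, with a median of 7031 genes per cell under GNF4877 against 8938 under DMSO. After thinning to 100000 listed reads the medians were 4918.5 genes under GNF4877 and 6606.5 under DMSO, so the gap was also present at equal depth.

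Beta cell markers were checked in the *Ins1*-high cells. *Ins2* and *Iapp* were read in every such cell, the glucose transporter gene *Slc2a2* in 78 of 78 DMSO and 58 of 59 GNF4877 cells, and *Pdx1* in 67 and 40 cells. *Mafa*, a defining beta cell factor, was read in 5 DMSO cells and in no GNF4877 cell. *Gcg* reached 1000 RPM in 22 of the DMSO cells and in 1 GNF4877 cell, and any second hormone (*Gcg*, *Sst* or *Ppy*) did so in 25 and 4 cells. The label beta is therefore not used, and the cells keep the name *Ins1*-high. In the alpha cells the median of *Gcg* was 409098 RPM under DMSO and 271660 RPM under GNF4877, *Irx2* was read in 2 of 5 and 10 of 18 cells, while *Loxl4* had no read.

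NRF2, the transcription factor encoded by *Nfe2l2*, is bound by the adaptor KEAP1 and degraded, and it accumulates when oxidants or electrophiles modify KEAP1. Together with small MAF proteins it then binds antioxidant response elements and drives genes of quinone reduction, glutathione synthesis, thioredoxin reduction and haem breakdown. Much of this control acts on the protein, so the *Nfe2l2* transcript is not a measure of NRF2 activity. Beta cells are known for low levels of several antioxidant enzymes, catalase among them.

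*Akr1b8* was read in 13 of 78 *Ins1*-high DMSO cells (16.7%, 9.18 to 26.8%) and in 35 of 59 *Ins1*-high GNF4877 cells (59.3%, 45.7 to 71.9%). Here and throughout, the range after a share is its exact 95% interval by the method of Clopper and Pearson, and it covers counting error only. Of the cells with a read, 5 DMSO cells held at most 2.14 RPM and 20 GNF4877 cells at most 2.44 RPM, and no cell lay between these and the next values, 22.3 RPM under DMSO and 50.1 RPM under GNF4877. The high cells numbered 8 under DMSO (10.3%, 4.53 to 19.2%) and 15 under GNF4877 (25.4%, 14.98 to 38.4%), and these intervals overlapped. At the common depth of 100000 reads, the share with a read was 11.8% under DMSO (5.56 to 21.3%) and 31.03% under GNF4877 (19.5 to 44.5%).

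Across *Ins1*-high cells the level of *Akr1b8* had a lowest value of 0, a median of 0 and a highest value of 624 RPM under DMSO, and a lowest value of 0, a median of 0.687 and a highest value of 15479 RPM under GNF4877. The groups overlapped in level, since cells without a read made up much of both, while the share with a read and the highest values were larger under GNF4877. The mean was 18.5 RPM under DMSO and 495 RPM under GNF4877, a log2 ratio of 4.67 on the scale of mean plus 1 RPM. GNF4877 cell 18 held 52.99% of the GNF4877 sum, and without it the mean was 237 RPM and the log2 ratio 3.61. DMSO cell 42, which also held 111371 RPM of the hormone gene *Ppy*, held 43.4% of the DMSO sum, and without it the DMSO mean was 10.6 RPM and the log2 ratio 5.42. Averaging log2(RPM + 1) over cells gave a smaller difference of 1.99, with no all-gene median taken off. By mean level the order was *Ins1*-high GNF4877 cells (495 RPM), *Ins1*-high DMSO cells (18.5 RPM), alpha GNF4877 cells (6.63 RPM) and alpha DMSO cells (0.592 RPM). The lower quartile was 0 in each of these groups, so neighbours in the order were not apart beyond the spread over cells.

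**Figure D1:**
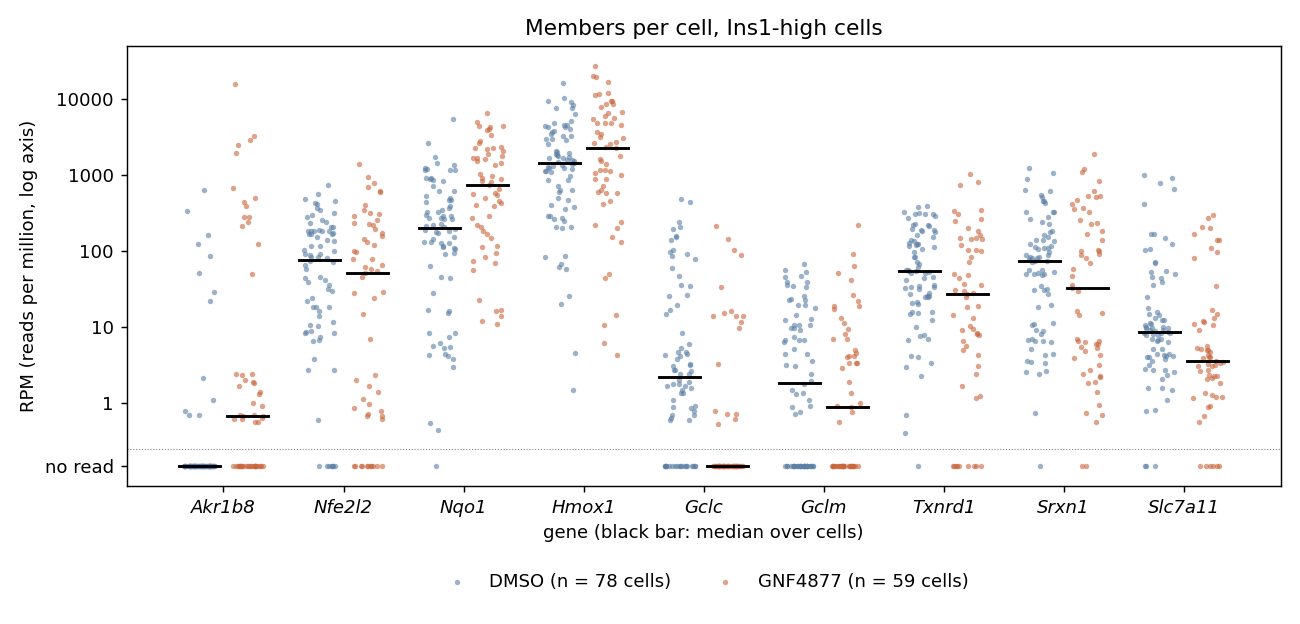
RPM of the 9 genes in each *Ins1*-high cell (log axis, cells without a read at the bottom, black bars for medians), with 78 DMSO cells in blue and 59 GNF4877 cells in orange. *Akr1b8* reached 15479 RPM in 1 GNF4877 cell with a median of 0.687 RPM, whereas the median of *Nqo1* was 201 RPM under DMSO and 728 RPM under GNF4877.

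The genes whose level followed *Akr1b8* most closely over the 59 *Ins1*-high GNF4877 cells, among those read in 25% or more of them, were LOC100910708 (Spearman rank correlation 0.80), *Akr1b7* (0.79), *Akr1b10* (0.76), *Gtf2f1* (0.53) and *Polr1e* (0.49). At the common depth the first 3 kept values of 0.90, 0.79 and 0.86, and the last 2 had 0.30 and 0.22. *Akr1b10* and *Akr1b7* are aldo-keto reductases close to *Akr1b8* in sequence, and in the RefSeq gene order of the rat genome (GRCr8) they follow it, between *Akr1b1* and *Bpgm*. LOC100910708 was not in that gene table. In the 15 high GNF4877 cells *Akr1b8* took 82 to 89.1% (median 84.6%) of the sum of these 4 genes, and in the 8 high DMSO cells 74.4 to 86.6% (median 83.8%). In the other *Ins1*-high cells *Akr1b7*, *Akr1b10* and LOC100910708 reached at most 0.844 RPM. Reads of near-identical copies may have been divided among them, so the levels of all 4 are uncertain one by one. Their sum gave a log2 ratio of 4.66, a setting chosen after the data were seen. *Akr1b1*, the neighbour on the other side, had a median of 238 RPM under DMSO and 275 RPM under GNF4877 and was read in 75 of 78 and 54 of 59 cells; it was chosen after its values were seen.

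Markers of mesenchymal cells moved with *Akr1b8* in a few cells, which were set apart after the data were seen. The 8 markers, all in the table, summed to 1000 RPM or more in 5 cells of the 170. *Akr1b8* was 338 RPM in DMSO cell 24 and 51.1 RPM in DMSO cell 46, both *Ins1*-high, 56.1 RPM in DMSO cell 29, 113 RPM in GNF4877 cell 42, an alpha cell by its *Gcg*, and 107 RPM in GNF4877 cell 15. All 5 cells thus had *Akr1b8* of 10 RPM or more (47.8 to 100%), against 21 of the other 165 cells (12.7%, 8.05 to 18.8%). Over *Ins1*-high cells the summed markers had a median of 0 in both treatments and a maximum of 15482 RPM under DMSO and 4.51 RPM under GNF4877, with *Col1a1* the most abundant, and 1 of the 8 markers had no read under GNF4877. Without the mesenchymal-marker cells, 6 of 76 *Ins1*-high DMSO cells (7.89%, 2.95 to 16.4%) had *Akr1b8* of 10 RPM or more and the log2 ratio was 5.06. The 15 high GNF4877 cells in the *Ins1*-high group held at most 3.43 RPM of these markers. The part of these cells in the DMSO values was not tested further.

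Among the 8 other genes, 1 had a log2 ratio of 1 or more in *Ins1*-high cells, where 10.1% of the 13368 genes tested did, and 2 had a ratio of -1 or less, where 17.2% did. That is 3 of 8 in either direction, against 27.3% of all genes, a share near the background. All 8 passed the filter of a mean of 1 RPM. Their median log2 ratio was 0.23, and that of all genes tested was -0.09. On the scale of mean log2(RPM + 1) the all-gene median was -0.49, and differences on that scale are given relative to it. On it, 3 of the 8 lay above the all-gene median (*Nqo1*, *Hmox1* and *Gclm*).

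*Nfe2l2*, which encodes NRF2 itself, was read in 71 of 78 *Ins1*-high DMSO cells and 48 of 59 GNF4877 cells. Its level ran from 0 through a median of 76.8 to 737 RPM under DMSO, and from 0 through a median of 52.02 to 1369 RPM under GNF4877. The ranges overlapped, and mean and median went in opposite directions: the mean was 125 RPM under DMSO and 158 RPM under GNF4877 (log2 ratio 0.33), while the mean log2 difference was -0.42 relative to all genes. No direction is given for it.

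*Nqo1*, the quinone reductase often read as the standard NRF2 target, was the gene of the 8 at a log2 ratio above 1. It ran from 0 through a median of 201 to 5394 RPM in DMSO cells and from 11.1 through a median of 728 to 6469.8 RPM in GNF4877 cells. All 59 GNF4877 cells held 10 RPM or more (93.9 to 100%), and 63 of 78 DMSO cells did (80.8%, 70.3 to 88.8%). The ranges overlapped over most of their width, with the GNF4877 cells shifted upwards. The groups also differed in make-up, with a second hormone in 25 of 78 DMSO and 4 of 59 GNF4877 cells. In alpha cells *Nqo1* was lower, with a mean of 42.1 RPM under DMSO and 114 RPM under GNF4877. Values without the second-hormone cells are not given here. The mean was 441 RPM under DMSO and 1315 RPM under GNF4877, a log2 ratio of 1.57 that ran from 1.47 to 1.801 as single cells were left out. Relative to all genes the mean log2 difference was 2.50, next to 2.48 for *Akr1b8*.

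*Hmox1*, haem oxygenase, which breaks haem down to biliverdin, iron and carbon monoxide, was read in every *Ins1*-high cell. Its level ran from 1.504 through a median of 1418 to 16027 RPM under DMSO and from 4.29 through a median of 2275 to 26976 RPM under GNF4877. The ranges overlapped, and the highest values were those of GNF4877 cells. The mean was 2374 RPM under DMSO and 4299.96 RPM under GNF4877, with a log2 ratio of 0.86, short of the threshold of 1, and a mean log2 difference of 0.96 relative to all genes.

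The genes of glutathione synthesis differed among themselves. *Gclc*, the catalytic subunit of glutamate-cysteine ligase, was read in 59 of 78 DMSO cells (75.6%, 64.6 to 84.7%) and 18 of 59 GNF4877 cells (30.5%, 19.2 to 43.9%). At the common depth the shares were 35.5% (24.9 to 47.3%) and 18.97% (9.87 to 31.4%), and at 10 RPM or more 28.2% (18.6 to 39.5%) and 18.6% (9.69 to 30.9%), with overlapping intervals in both cases. Its level ran from 0 through a median of 2.20 to 478 RPM under DMSO and from 0 through a median of 0 to 210 RPM under GNF4877. Most GNF4877 cells had no read, but the upper ranges overlapped. The log2 ratio was -1.57, from -2.03 without GNF4877 cell 68 to -1.33 without DMSO cell 36. *Gclm*, the modifier subunit of the same enzyme, had medians of 1.86 and 0.903 RPM and maxima of 68.02 and 217 RPM under DMSO and GNF4877. Its log2 ratio was 0.17, and -0.31 without GNF4877 cell 81, the highest cell, so no direction is given for it.

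*Slc7a11*, the cystine importer that feeds glutathione synthesis, ran from 0 through a median of 8.74 to 982 RPM in DMSO cells and from 0 through a median of 3.61 to 296 RPM in GNF4877 cells. The groups overlapped, and the DMSO mean rested on a few high cells. The log2 ratio of -1.05 fell short of -1 without DMSO cell 7 (-0.79), 42 (-0.81), 82 (-0.85), 24 (-0.89) or 43 (-0.96). It did so as well with a pseudocount of 10 RPM (-0.89), with *Ins1* of 10000 RPM or more (-0.81) and as a difference of mean log2 values (-0.88, or -0.40 relative to all genes). Leaving out the cells with mesenchymal markers (-0.90) or duct markers (-0.79) ended it too, both settings chosen after the data were seen.

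*Txnrd1*, cytosolic thioredoxin reductase, and *Srxn1*, sulfiredoxin, which repairs overoxidised peroxiredoxins, showed the same split between mean and median as *Nfe2l2*. *Txnrd1* ran from 0 through a median of 54.1 to 394 RPM under DMSO and from 0 through a median of 27.2 to 1020 RPM (1019.8) under GNF4877. *Srxn1* ran from 0 through a median of 74.5 to 1228 RPM under DMSO and from 0 through a median of 32.6 to 1859 RPM under GNF4877. In both genes the GNF4877 cells had the lower median, and the highest single value was in a GNF4877 cell. For *Srxn1* the second highest value, 1228 RPM, was in a DMSO cell. The log2 ratios of the means were 0.12 and 0.29, and the mean log2 differences were -0.57 and -0.21 relative to all genes, so neither gene is given a direction.

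**Figure D2:**
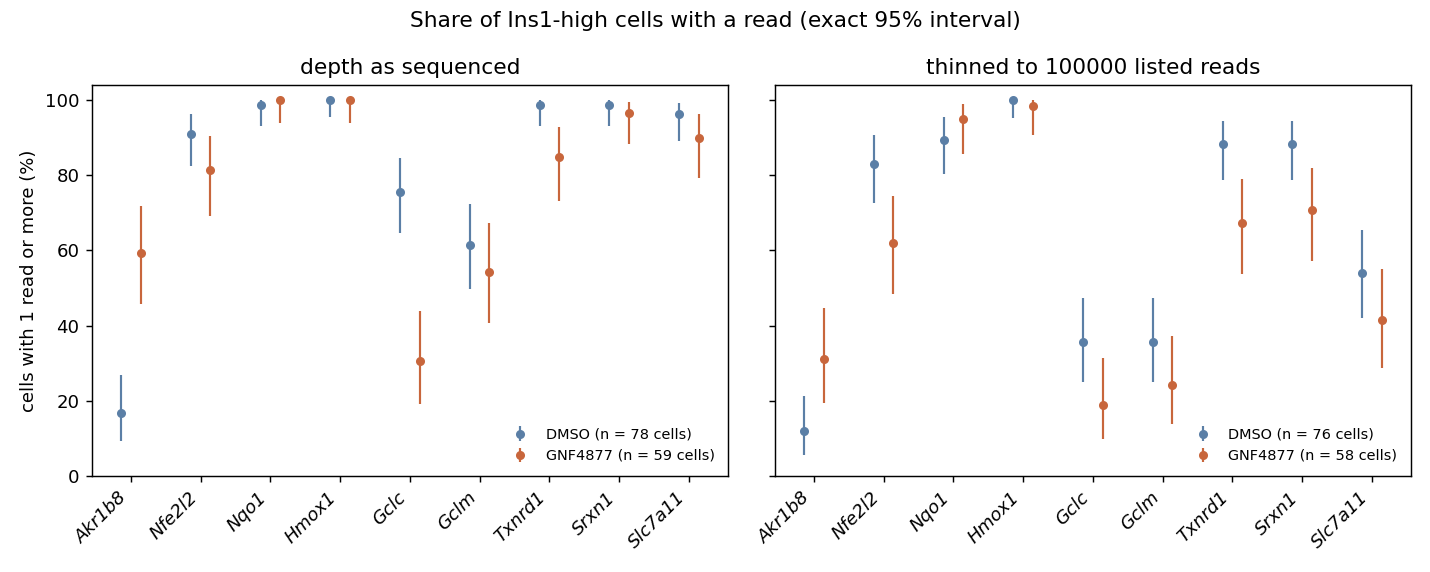
Percent of *Ins1*-high cells with a read of each of the 9 genes, for 78 DMSO cells and 59 GNF4877 cells, with exact 95% intervals that cover counting error only. *Akr1b8* was read in 16.7% of DMSO and 59.3% of GNF4877 cells and *Gclc* in 75.6% and 30.5% (35.5% and 18.97% at the common depth), while *Hmox1* was read in every cell of both.

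Whether these genes followed *Akr1b8* from cell to cell was described by rank correlation within a treatment. The cells of a treatment share a chip and differ in depth, and *Akr1b8* itself had a rank correlation of 0.27 with mapped reads and 0.22 with genes read over the 59 *Ins1*-high GNF4877 cells. In those cells the rank correlation with *Akr1b8* was 0.30 for *Nqo1*, 0.29 for *Srxn1*, 0.18 for *Nfe2l2*, 0.17 for *Gclm*, 0.15 for *Gclc*, 0.13 for *Hmox1*, 0.09 for *Txnrd1* and 0.01 for *Slc7a11*. The median of the 8 was 0.16, where the 9423 genes read in 25% or more of the cells had a median of 0.04 and a 95th percentile of 0.26. *Nqo1* and *Srxn1* lay above that percentile, and at the common depth (58 cells) they had 0.36 and 0.46. All of these are weak, in a gene without a read in much of the group, and no finding is drawn from them.

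Over the 78 *Ins1*-high DMSO cells the rank correlation with *Akr1b8* was 0.22 for *Nqo1*, 0.18 for *Slc7a11*, 0.17 for *Nfe2l2*, 0.14 for *Txnrd1*, 0.10 for *Hmox1*, 0.08 for *Gclm*, 0.01 for *Srxn1* and -0.01 for *Gclc*. The median was 0.12, where 11212 genes had a median of 0.03 and a 95th percentile of 0.215. *Nqo1* lay at that percentile (0.218, or 0.201 at the common depth), and *Srxn1* was near 0. At the common depth *Slc7a11* was the highest of the 8 (0.27). The 28 pairs among the 8 genes without *Akr1b8* had a median rank correlation of 0.11 under GNF4877 and 0.18 under DMSO, or 0.154 and 0.156 at the common depth. The highest pair under GNF4877 was *Txnrd1* with *Srxn1* (0.51). Under DMSO *Nqo1* with *Hmox1* and *Nfe2l2* with *Nqo1* were level (0.45 each).

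The 15 high GNF4877 cells, with *Akr1b8* of 10 RPM or more, were then set beside the other 44. *Nqo1* had a median of 2158 RPM in the high cells (114 to 4917 RPM) and 527 RPM in the rest (11.1 to 6469.8 RPM). *Srxn1* had a median of 358 RPM (2.20 to 1202 RPM) against 10.7 RPM (0 to 1859 RPM). For both genes 12 of the 15 high cells lay above the median of the rest, yet the ranges overlapped fully. *Hmox1* had medians of 3137 and 1553 RPM, *Nfe2l2* of 95.9 and 25.96 RPM and *Txnrd1* of 50.1 and 22.1 RPM. *Slc7a11* (3.95 and 3.53 RPM), *Gclm* (0.994 and 0.675 RPM) and *Gclc* (0.533 and 0 RPM) differed little. The high cells did not share a single profile: GNF4877 cell 18, with the most *Akr1b8*, held 114 RPM of *Nqo1* and 44.3 RPM of *Hmox1*, both low for its group. Median depth was 1451688 mapped reads in the high cells and 1411051 in the rest, and median genes read 7154 and 6953.5.

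Under DMSO the 8 high cells had a median of 1177 RPM of *Nqo1* against 186 RPM in the other 70, and 259 RPM of *Slc7a11* against 8.43 RPM. *Nfe2l2* (189 against 69.3 RPM), *Txnrd1* (143 against 48.1 RPM) and *Hmox1* (2221 against 1372 RPM) were also higher at the median, and *Srxn1* was at 78.1 against 74.5 RPM. *Gclm* (5.78 against 1.65 RPM) and *Gclc* (2.70 against 1.97 RPM) lay within a few reads. Ranges overlapped for each of these genes. Of the 8 high cells, 2 (24 and 46) were among those with mesenchymal markers, whose part in these medians was not tested.

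**Figure D3:**
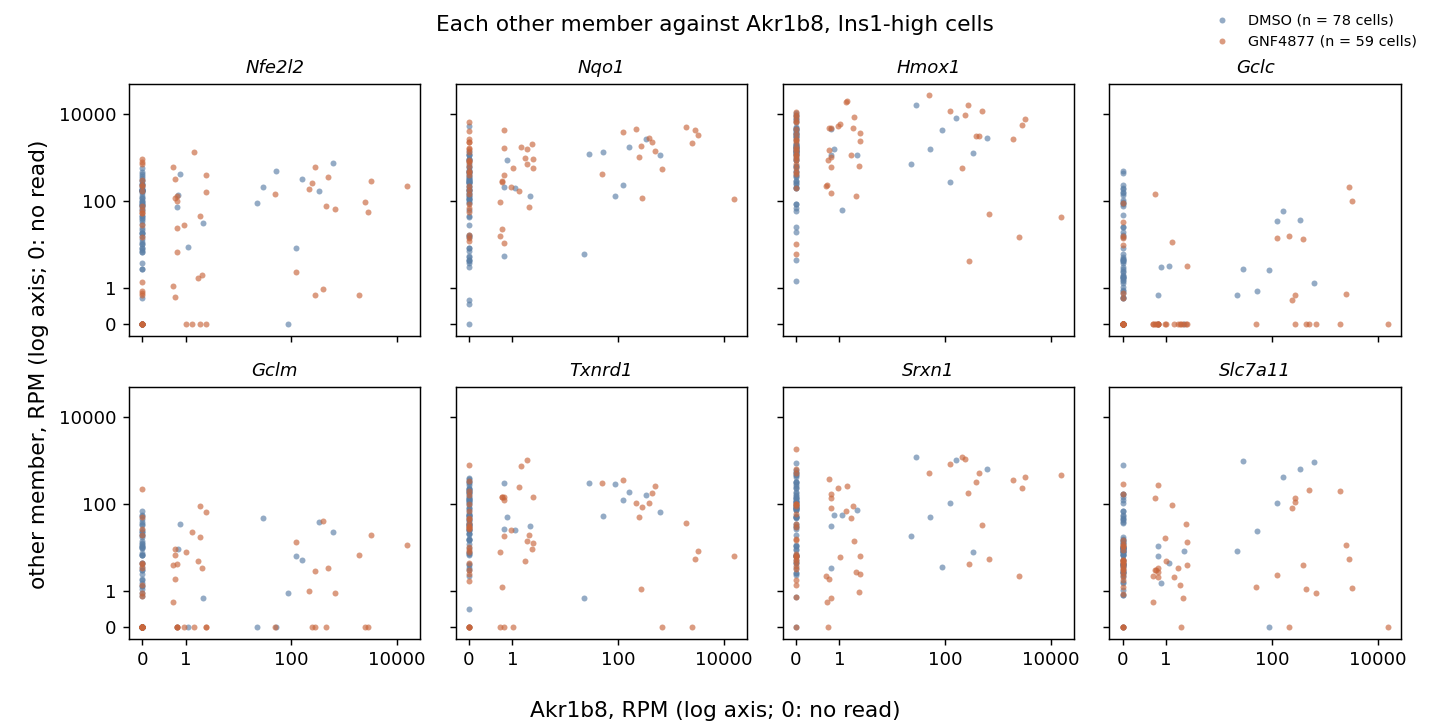
RPM of each of the 8 other genes against RPM of *Akr1b8* (log axes) in single *Ins1*-high cells, 78 DMSO and 59 GNF4877. The rank correlation over the GNF4877 cells ran from 0.01 for *Slc7a11* to 0.30 for *Nqo1*, and cells without a read of *Akr1b8* stand at the left edge.

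Duct markers, all 8 of them in the table, also varied with treatment. Their sum had a median of 323 RPM in *Ins1*-high DMSO cells and 526 RPM in *Ins1*-high GNF4877 cells and reached 1000 RPM in 2 and 9 cells. *Krt7* was the most abundant under DMSO and *Krt18* under GNF4877, and 1 and 2 of the 8 markers had no read. In the 15 high GNF4877 cells the median sum was 668 RPM, and in the other 44 cells 440 RPM (439.6), while under DMSO it was 345 RPM in the 8 high cells and 323 RPM in the other 70. Without the cells from 1000 RPM, a setting chosen after the data were seen, the log2 ratio of *Akr1b8* was 5.21 and the rank correlation of *Nfe2l2* with it was 0.34. Beta cell markers, 9 of 10 in the table with *Ins1* the most abundant, were lower in the high cells: their sum had a median of 26034 RPM in the 15 high GNF4877 cells and 47522 RPM in the other 44, and under DMSO 29234 RPM in the 8 high cells and 52403 RPM in the other 70. The part of duct and beta cell markers in the result was not tested further. *Mmp13* and *Ccnb1* were set beside *Akr1b8* after their values were seen. *Mmp13*, a collagenase, was at 10 RPM or more in 7 of the 15 high cells (46.7%, 21.3 to 73.4%) and 9 of the other 44 (20.5%, 9.80 to 35.3%), and *Ccnb1*, a mitotic cyclin, was read in 3 (20%, 4.33 to 48.1%) and 16 (36.4%, 22.4 to 52.2%). The intervals of high and other cells overlapped for both genes. The rank correlation with *Akr1b8* over the 59 cells was 0.46 for *Mmp13*, or 0.31 at the common depth, and 0.15 for *Ccnb1*, or -0.15. Under DMSO *Mmp13* was at 10 RPM or more in 0 of the 8 high cells (0 to 36.9%) and 9 of the other 70 (12.9%, 6.05 to 23.01%), and *Ccnb1* was read in 1 (12.5%, 0.316 to 52.7%) and 0 (0 to 5.13%). The rank correlations over the 78 DMSO cells were 0.05 for *Mmp13*, or -0.04 at the common depth, and 0.26 for *Ccnb1*, or 0.30, the last resting on 1 cell.

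Alpha cells were few under DMSO, which limits every ratio in them. *Akr1b8* was read in 1 of the 5 DMSO cells (0.505 to 71.6%), as 1 read in cell 90, and in 4 of 18 GNF4877 cells (22.2%, 6.41 to 47.6%). GNF4877 cell 42, the one with mesenchymal markers, held 113 RPM, and the next held 4.69 RPM. The GNF4877 mean of 6.63 RPM was 0.387 RPM without cell 42. No ratio is given, since the DMSO value rests on 1 read.

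Of the other 8 genes, 2 had a log2 ratio of 1 or more in alpha cells, where 34.9% of the 11889 genes tested did, and 3 had -1 or less, where 23.8% did. In either direction that was 5 of 8, against 58.6% of all genes, which is near the background. The median of the 8 was 0.02 and that of all genes 0.27. On the scale of mean log2(RPM + 1) the all-gene median was -0.40, the median of the 8 lay at -0.99 relative to it, and 2 of the 8 were above it (*Nqo1* and *Hmox1*).

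*Hmox1* in the DMSO alpha cells was 1241, 307, 65.1, 2.08 and 0 RPM, and in the GNF4877 alpha cells it ran from 0 through a median of 888 to 10089.6 RPM. Most GNF4877 cells lay above all but the highest DMSO cell. The log2 ratio was 2.63, and 4.403 without DMSO cell 33. *Nqo1* was 192, 8.88, 7.04, 2.78 and 0 RPM under DMSO and ran from 8.49 through a median of 19.2 to 598 RPM under GNF4877. All but 1 of the DMSO cells lay near or below the lowest GNF4877 cell. The log2 ratio was 1.41, and 4.34 without DMSO cell 33; with *Ins1* below 100 RPM in place of 1000 RPM it turned to -0.53, with 2 DMSO cells left.

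DMSO cell 33 also set the values of the glutathione genes. *Slc7a11* was 408, 24.3, 9.73, 7.28 and 2.96 RPM in the DMSO alpha cells and ran from 0 through a median of 1.88 to 218 RPM in the GNF4877 ones. *Gclc* was 162, 7.82, 4.17, 1.04 and 0 RPM under DMSO, and 14 of the 18 GNF4877 cells had no read. The cell was the highest for both genes, and it also held 1672 RPM of *Sst*. The log2 ratio of *Slc7a11* was -1.67 with the cell and 1.25 without it, and that of *Gclc* -3.47 with it and -0.39 without it. Without the highest GNF4877 cell, *Slc7a11* was at -2.39 (cell 27) and *Gclc* at -4.99 (cell 94). *Gclm* was at 0.94 and turned to -1.45 without GNF4877 cell 9, or was 2.22 without DMSO cell 33. A second hormone was present in GNF4877 alpha cells too, with 15428 RPM of *Ppy* in cell 59 and 5480 RPM in cell 8.

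*Txnrd1* in the DMSO alpha cells was 178, 117, 55.1, 11.1 and 0 RPM, and under GNF4877 it ran from 0 through a median of 1.23 to 202 RPM. Most GNF4877 cells lay below the 4 DMSO cells with a read. The log2 ratio was -1.97, -3.22 without GNF4877 cell 9 and -1.32 without DMSO cell 67. GNF4877 cell 9 also held 2288 RPM of duct markers, which reached 1000 RPM in 4 of 18 GNF4877 and 0 of 5 DMSO alpha cells. The part of duct markers in the alpha values was not tested. *Srxn1* (medians 8.88 and 9.10 RPM, log2 ratio -0.53) and *Nfe2l2* (medians 107 and 96.2 RPM, log2 ratio 0.58) did not reach the threshold. On the mean log2 scale *Nfe2l2* lay at -1.67 relative to all genes, opposite to its ratio, so no direction is given for it. Without GNF4877 cell 9, *Srxn1* was at -1.08, past it, and without DMSO cell 67 at 0.04. *Nfe2l2* had a read in 5 of 5 DMSO and 13 of 18 GNF4877 alpha cells.

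**Figure D4:**
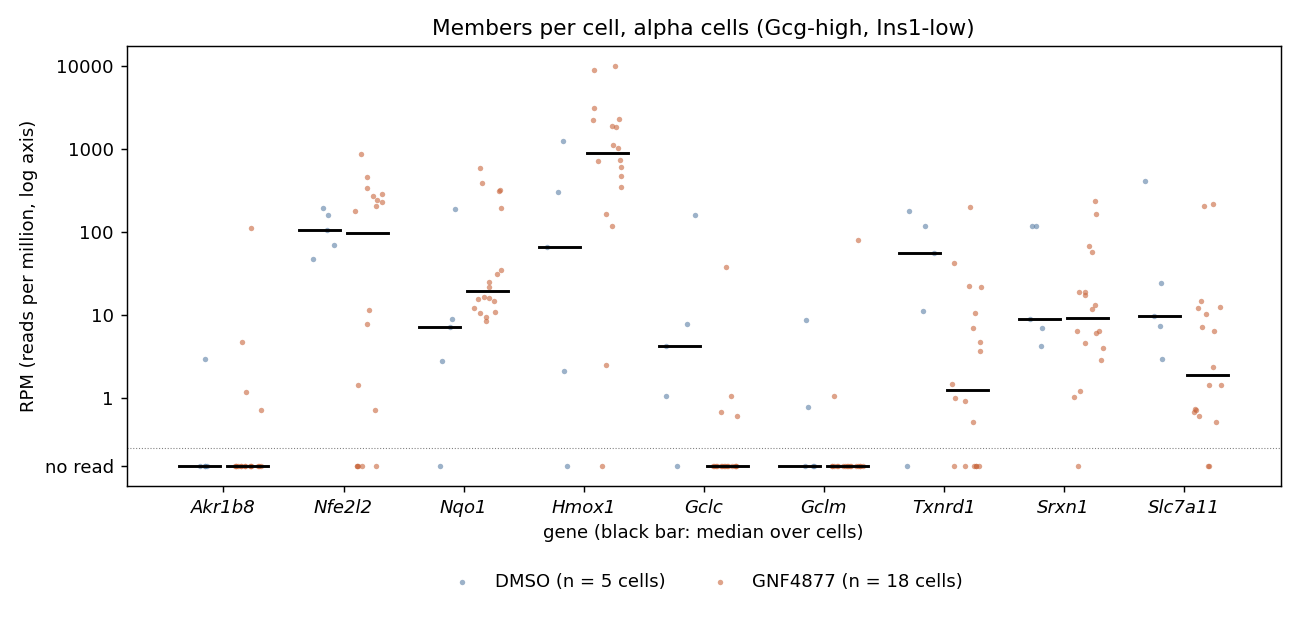
RPM of the 9 genes in each alpha cell (log axis, cells without a read at the bottom, black bars for medians), with 5 DMSO and 18 GNF4877 cells. The median of *Hmox1* was 65.1 RPM under DMSO and 888 RPM under GNF4877, and *Akr1b8* reached 113 RPM in 1 GNF4877 cell.

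Genes around the same pathway were taken from 8 lists and counted in *Ins1*-high cells against the all-gene shares of 10.1% higher and 17.2% lower and the all-gene median of -0.09. Of 11 regulators of NRF2, none was at 1 or more and 2 were at -1 or less, with a median of -0.32. *Keap1*, the adaptor that holds NRF2, was at -1.01 (means 9.26 RPM under GNF4877 and 19.7 under DMSO). That value was -2.01 without GNF4877 cell 41 and fell short of -1 when any of many single cells was left out (-0.86 without DMSO cell 71). *Mafk*, a small MAF partner, was at -1.21 and stayed past -1 without any single cell. *Bach1*, a repressor at the same elements, was at 0.81 (0.18 without GNF4877 cell 24) and *Maff* at 0.35 (-0.63 without GNF4877 cell 72).

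Of 9 genes for NADPH and glutathione supply, 2 were at 1 or more and none at -1 or less, with a median of 0.83. *Taldo1*, transaldolase, was at 1.29 (means 670.1 RPM under GNF4877 and 274 RPM under DMSO). *Ggct* (0.17) and *Me1*, malic enzyme (-0.23), were the lowest. Relative to all genes on the mean log2 scale, 8 of the 9 lay above the all-gene median.

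Of 21 genes for glutathione transfer and detoxification, 17 passed the filter, 4 were higher and 2 lower, with a median of 0.15. *Ugt1a6*, a glucuronosyltransferase, was at 1.75 and the glutathione transferase *Gsta5* at 1.56. Another transferase, *Gstm1*, was at -1.96 (-2.74 without GNF4877 cell 51 and -1.35 without DMSO cell 37), and *Mgst1* was at -1.17, which ended without DMSO cell 77 (-0.77) or 12 (-0.84). The thioredoxin and peroxiredoxin list had 2 of 14 higher and 3 lower, with a median of 0.16. Its peroxiredoxins *Prdx6* (1.39) and *Prdx1* (1.202) were highest, with *Prdx1* at 1742 RPM under GNF4877 and 757 RPM under DMSO. *Txnrd2*, the mitochondrial thioredoxin reductase, was lowest at -2.66 (-3.38 without GNF4877 cell 50 and -2.20 without DMSO cell 95). Its median was 0 RPM in both treatments, with a read in 15.3% of GNF4877 and 28.2% of DMSO cells. *Txnip*, an inhibitor of thioredoxin, had 1 read over the *Ins1*-high GNF4877 cells together and 209 reads over the *Ins1*-high DMSO cells. It was read in only 12.8% of those DMSO cells, and its median was 0 RPM in both treatments. DMSO cell 81 held 33.8% of the DMSO sum, and the log2 ratio was -1.57 with that cell and -1.21 without it.

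Superoxide and peroxide enzymes had 2 of 8 higher and 2 lower, with a median of 0.00. *Gpx2*, a glutathione peroxidase, was at 3.44 and *Sod2*, the mitochondrial superoxide dismutase, at 1.97. *Sod3* (-1.76) and *Gpx3* (-1.25) were no longer past -1 without DMSO cell 46, one of those with mesenchymal markers (-0.95 and -0.93). The median of *Gpx3* was 17.9 RPM under GNF4877 and 114 RPM under DMSO. Of 10 iron and haem genes 2 were higher and 1 lower, with a median of 0.39. *Fth1*, ferritin heavy chain, was at 1.75, with medians of 9026 RPM under GNF4877 and 2789 RPM under DMSO. *Tfrc*, the transferrin receptor, was at 1.04, which ended without GNF4877 cell 68 (0.89), 24 (0.96), 48 (0.97), 63 (0.98) or 41 (0.98). *Slc48a1*, a haem transporter, was at -1.22 and *Hmox2* at -0.27.

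Of 12 aldo-keto reductases other than *Akr1b8*, 8 passed the filter and 2 were higher, with a median of 0.47. They were the copies *Akr1b10* (3.88, or 2.79 without GNF4877 cell 18) and *Akr1b7* (2.95, or 2.0002 without that cell). *Akr1b7*, with a mean of 0.367 RPM under DMSO, passed the filter only through the GNF4877 cells. Both copies followed *Akr1b8*, which was selected on this ratio, so the count is a description and supports nothing. *Akr1d1* (-0.41) and *Akr1e2* (-0.20) were lowest. The amino acid stress list, genes driven by ATF4, had 1 of 10 higher and 4 lower, with a median of -0.26. *Trib3* was at -1.83 (medians 0 RPM under GNF4877 and 126 RPM under DMSO) and *Slc7a5* at -1.56. *Psat1*, of serine synthesis, was at 1.15, which ended without GNF4877 cell 55 (0.70) or 17 (0.79), and *Shmt2* was at 0.82.

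The same lists in alpha cells rest on 5 DMSO cells and are read against 34.9% of all genes higher, 23.8% lower and a median of 0.27. The amino acid stress list had 8 of 10 genes higher (7 to 8 as single cells were left out) and 1 lower, with a median of 1.94, or 0.91 with a pseudocount of 10 RPM. In the DMSO alpha cells *Chac1* and *Phgdh* had no read, *Shmt2* had 1 read, and *Psat1* and *Trib3* had 3 reads each. These higher genes passed the filter only through the GNF4877 cells, so the count is a description and supports nothing. No ratio is given for *Shmt2*, whose DMSO value rests on 1 read and whose GNF4877 sum came to 96.5% from cell 27. *Slc7a5*, the lower gene, was at -2.26 and at 0.47 without DMSO cell 90, which left 0 lower. The glutathione transferases and detoxification genes had 3 of 18 higher and 8 lower (median -0.88), and without DMSO cell 33 they had 7 higher and 2 lower (1.48). The iron and haem list had 6 of 10 higher and 2 lower (1.38), and without the same cell 8 higher and 0 lower (2.59). The superoxide and peroxide enzymes had 4 of 8 higher and 2 lower (0.77). Without that cell they had 5 higher and 0 lower (1.44), and without any of many single GNF4877 cells 1 lower.

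For the remaining lists in alpha cells, several single cells moved the counts. The thioredoxin system had 2 of 13 higher and 3 lower (-0.11). The number higher was 0 without DMSO cell 90, 1 without DMSO cell 89 or GNF4877 cell 59 and 4 without DMSO cell 33. The number lower was 5 without DMSO cell 67 and 7 without GNF4877 cell 42 (median -1.02). The regulators of NRF2 had 3 of 10 higher and 1 lower (0.24), with 0 lower without DMSO cell 89 and 2 lower without GNF4877 cell 94. NADPH and glutathione supply had 2 of 8 higher and 1 lower (0.29), or a median of 0.88 without DMSO cell 67. The number higher was 1 without any of DMSO cells 89, 90 and 94 or GNF4877 cells 8, 9, 27, 42, 53 and 85. The number lower was 0 without DMSO cell 33, 2 without DMSO cell 89 or GNF4877 cell 20, 27 or 52, and 3 without GNF4877 cell 42. The aldo-keto reductases had 1 of 6 higher and 2 lower (-0.07), with 1 lower without DMSO cell 67, 90 or 94. Among the higher genes of the other lists, *Keap1* and *Mgst2* had no read in the DMSO alpha cells. No direction is given for any of the 8 lists in alpha cells, and whether alpha and *Ins1*-high cells differ in them was not tested.

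Promoter sequences were looked at for 8 of the 9 genes, which matched 9 RefSeq promoter entries by symbol (build GRCr8, 250 bases before to 50 bases after the start). *Hmox1* is listed in the RefSeq gene table but had no entry among the promoter sequences used here. TGACNNNGC, the core of the antioxidant response element, was searched on both strands and was found in 12.1% of all 33469 promoters. TGANTCA, the AP-1 element, which reads alike on both strands, was found in 7.33%. The first motif matched 3 of the 9 entries (*Gclm*, *Txnrd1* and *Nfe2l2*) and the second 1 (*Srxn1*). The matches that lay before the start are shown because they are the stretches of these genes that hold the letters, with the motif in capitals and 10 bases on either side, 5′ to 3′ on the strand of the gene. The *Gclm* and *Txnrd1* matches lie on the opposite strand, so their capitals are the reverse complement of TGACNNNGC. A match is a description of letters and not of binding. The *Gclm* match began 172 bases before the start at chr2:213031953-213031981 (+), the *Txnrd1* match 78 bases before it at chr7:22755964-22755992 (-), and the *Srxn1* match 62 bases before it at chr3:161064740-161064766 (+).
Gclm: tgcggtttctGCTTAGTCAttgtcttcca
Txnrd1: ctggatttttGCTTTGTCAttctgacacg
Srxn1: tctgagggccTGAGTCAccacgctgtg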

How the data were processed

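The authors sequenced each captured cell, mapped the reads and deposited a table of RPM, reads scaled by the mapped reads of a cell, per transcript, in which 0.01 stands for no read. The study's methods name a mouse transcriptome for alignment, while the table lists rat symbols and RefSeq transcripts, and the reference behind these values was not settled, which bears most on close copies such as *Akr1b8*, *Akr1b7* and *Akr1b10*. The submitters' processing notes name CASAVA 1.8.2, BWA 0.5.9 and SAMtools 0.1.19. RPM is not divided by transcript length, so a share of a sum of genes, or the most abundant gene of a list, is by reads and not by molecules, and no other level was compared between genes. Here 0.01 was set to 0 and the 27586 transcripts were summed by symbol to 24113 genes. All 9 genes and the pathway lists were chosen with earlier results of these data known. Values up to 20 reads were whole multiples of 1 read within 0.1 reads in 100% of cases, which gave the reads and depth per cell. A count test was not run on them, since each treatment was 1 sample. The ratio was log2((mean + 1)/(mean + 1)) of GNF4877 over DMSO cells, over genes with a mean of both group means of 1 RPM or more; a value past 1 or -1 was counted as higher or lower. Shares carry exact 95% binomial intervals. For comparison at equal depth, cells were thinned to 100000 listed reads, and 6 of 170 cells were too shallow. Named were all 9 genes and, in *Ins1*-high cells, the 2 highest and 2 lowest ratios of each list. Also named were the 5 genes with the highest Spearman rank correlation to *Akr1b8* among those read in at least 25% of *Ins1*-high GNF4877 cells. For the lists in alpha cells this rule was not followed, and genes were named there to show what a count rests on. A gene that the rule names is not reported here. Doublets were not removed, and a second hormone was counted instead in *Ins1*-high cells. Among alpha cells, markers of delta cells (with *Sst*) reached 1000 RPM in 1 DMSO cell, and markers of PP cells (with *Ppy*) in 2 GNF4877 cells. The steps were tested on simulated data and run with matplotlib 3.10.9, scipy 1.17.1, pandas 2.3.3 and numpy 2.4.6 under Python 3.11.15.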

Additional observations from a re-analysis of the deposited data

Results flagged for a closer look

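Single cells far from the rest of a small group were looked for in the 5 DMSO alpha cells and in the 7 GNF4877 cells of neither group, by the gap to the nearest other cell as a share of the whole range, for 9 genes each. The limit was set for chance alone to mark about 1 in 20 groups, and 6 and 4 genes were marked. That rate is for normally distributed values, and the gaps were taken on RPM, which is skewed. It also does not hold where most cells have no read, since a gene read in 1 cell is marked whatever its value. The marks are therefore a description only. In the DMSO alpha cells, cell 33 stood apart for *Nqo1* (gap 0.954 of the range), *Gclc* (0.952), *Slc7a11* (0.947), *Gclm* (0.910) and *Hmox1* (0.753). It was 1 cell, so these are not independent. *Akr1b8* in cell 90 had a gap of 1, the whole range, from 1 read. In the GNF4877 cells of neither group, cell 15 stood apart for *Akr1b8* (0.992) and *Nqo1* (0.875), cell 33 for *Hmox1* (0.572) and cell 49 for *Gclc* (0.5682).

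GNF4877 cell 15, which is in neither the *Ins1*-high nor the alpha comparison, held 7959.86 RPM of *Nqo1*, the highest of all 170 cells, above the 5394 RPM that was the highest DMSO value. The same cell held 107 RPM of *Akr1b8*, 33.6 RPM of *Ins1* and 20399 RPM of mesenchymal markers.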

How the results depend on the processing

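The 98 results gave 596 values under other settings, of which 486 kept their size within 1.5-fold (rank correlation within 0.1) or within the 95% interval, 108 moved and 2, both past 1 or -1 at first, turned. No paired analysis was possible because neither treatment has a second sample. The cause of each change was not tested. The share of *Ins1*-high GNF4877 cells with *Akr1b8* was 33.9% at 3 reads or more, 25.4% at 10 RPM or more and 31.03% after thinning. The *Akr1b8* log2 ratio was 1.99 as a difference of mean log2 values (given here as it stands, with no all-gene median taken off), 5.46 with *Ins1* of 10000 RPM or more (68 and 49 cells), and 3.61 to 5.42 as single cells were left out. The median of the 8 other genes was -0.79 as such a difference, or -0.31 relative to all genes. Of the 8, the number at -1 or less was 1 with a pseudocount of 10 RPM, with *Ins1* of 10000 RPM or more, and without mesenchymal-marker or duct-marker cells (both chosen after seeing the data), and 1 to 2 as single cells were left out. Of all genes, 467 were at 1 or more and 586 at -1 or less with a pseudocount of 10 RPM, and 241 were at 1 or more as a difference of mean log2 values. That difference gave list medians of -1.15 (NRF2 regulators), -0.0186 (NADPH and glutathione supply) and -1.18 (amino acid stress), which were -0.66, 0.47 and -0.69 relative to all genes. In alpha cells, *Ins1* below 100 RPM (2 and 16 cells) gave a median of -0.80 with 1 gene at 1 or more, and *Nqo1* turned to -0.53. As single alpha cells were left out, the median ran from -1.27 to 0.84, the number at 1 or more from 2 to 4 and at -1 or less from 1 to 5, and *Slc7a11* ran from -2.39 to 1.25, a turn. For the lists in alpha cells, the difference of mean log2 values, with no all-gene median taken off, gave medians of -0.67 (NRF2 regulators), -0.77 (NADPH and glutathione supply), -0.85 (thioredoxin system), -0.20 (superoxide and peroxide enzymes), 0.10 (iron and haem), -0.79 (aldo-keto reductases) and 0.35 (amino acid stress, 0.91 with a pseudocount of 10 RPM). Leaving out single alpha cells, chosen for the lists after seeing the data, gave medians of -0.27 to 0.88 (NADPH and glutathione supply), -1.44 to 1.48 (glutathione transferases and detoxification), -1.02 to 0.21 (thioredoxin system), 0.41 to 1.44 (superoxide and peroxide enzymes) and 1.01 to 2.59 (iron and haem). The number of genes at 1 or more ran from 1 to 3 (NADPH and glutathione supply), 2 to 7 (glutathione transferases and detoxification) and 0 to 4 (thioredoxin system). The number at -1 or less ran from 0 to 2 (NRF2 regulators), 0 to 3 (NADPH and glutathione supply), 2 to 10 (glutathione transferases and detoxification), 2 to 7 (thioredoxin system), 0 to 2 (superoxide and peroxide enzymes), 0 to 3 (iron and haem), 1 to 2 (aldo-keto reductases) and 0 to 1 (amino acid stress). Of the remaining values, for single genes, 323 held and 55 moved. Depth limits genes such as *Gclc*, *Gclm* and *Akr1b8*, whose low values are a few reads.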
